A study of Mus musculus with 6 samples.

Results

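The 150 most abundant long noncoding RNAs of the mouse autosomes were described in the corneal limbus, where cornea meets conjunctiva and corneal epithelial stem cells reside. They were chosen by their summed read count over all 6 libraries, among 12418 autosomal rows of 39089 in the table that carried a noncoding type (long noncoding, antisense or miscellaneous RNA). Of those candidates, 7196 had at least 1 count. Wild-type mice had received subconjunctival L-733,060, which blocks NK1, the receptor of the nerve peptide substance P, on day 0 and again on day 3, and their limbus was taken after a week (n = 3 libraries). Controls had received sterile water, with the days not given (n = 3). The labels do not say whether the 3 libraries of a group are from different animals; p-values cover the spread between libraries only, which may be technical.

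A long noncoding RNA is a transcript without a recognised protein product. Some build nuclear bodies, some carry small nucleolar RNAs (snoRNAs) or microRNAs that are cut out of them, some belong to imprinted domains, and many run antisense to a coding gene. A read that falls where genes of both strands overlap can be assigned only when the library marks strand, and neither the strand mode of the counting nor a strand-marking step is given in the sources used here. For members that overlap another gene, reads from the 2 strands therefore cannot be told apart. In these bulk samples, fewer cells of a type and less RNA per cell cannot be told apart either.

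Of the 150 members, 148 were typed as long noncoding RNA. The exceptions were the antisense RNA Emx2os and the miscellaneous RNA Gm8995. No member was at 0 in any library, and all 150 passed the filter on low counts. Their summed counts ran from 1103 to 340636 with a median of 1853.5, and their annotated lengths from 154 to 83437 bases with a median of 3117.5, against 2916.5 bases for protein-coding genes. Of the members, 108 carry a provisional name (Gm, LOC or Rik). In GENCODE M21, 99 members were found by symbol, and 10 of these are typed protein-coding there. The type of the other members in GENCODE was not checked. Members lay on 18 of the autosomes, with 17 on chromosome 11. At the rank limit, D830050J10Rik had 1107 counts and Gm45928 had 1103, while Slfn10-ps with 1093 and Gm15764 with 1086 fell just outside.

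The abundance of the set rested on few genes. The members took 1.02% of all counts and 78.4% of the counts of all candidates, and A830036E02Rik, Neat1 and Malat1 alone took 58.2% of the members' counts. Per length, A830036E02Rik was at 2958 ± 855 TPM in controls, above Gm49428 at 529 ± 71.5, Malat1 at 369 ± 41.6, Gas5 at 298 ± 25.8, AY036118 at 285 ± 71.4 and Neat1 at 192 ± 30.4 (SD, n = 3). With L-733,060 the order of TPM was different: Gm49428 was at 786 ± 136, Malat1 at 400.1 ± 14.9, Gas5 at 391 ± 17.7, A830036E02Rik at 219 ± 61.1, Neat1 at 208 ± 18.4 and AY036118 at 203 ± 101. Malat1 and Gas5, and likewise A830036E02Rik, Neat1 and AY036118, did not differ beyond their spread in that second order.

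The members took 1.38, 1.11 and 1.14% of the counts in the controls and 0.824, 0.747 and 0.840% in the L-733,060 libraries. The groups did not overlap, and the exact two-sided permutation test gave p = 0.1, the smallest that 3 against 3 allows. Without A830036E02Rik the share was 0.736 ± 0.0361% in controls and 0.767 ± 0.0447% with L-733,060 (exact permutation p = 0.4). The 2 groups then overlapped; this alternative was chosen after seeing the data. The members that overlap no coding gene took 0.425 ± 0.0222% in controls and 0.467 ± 0.0172% with L-733,060, again without overlap of the groups (exact permutation p = 0.1).

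**Figure D1:**
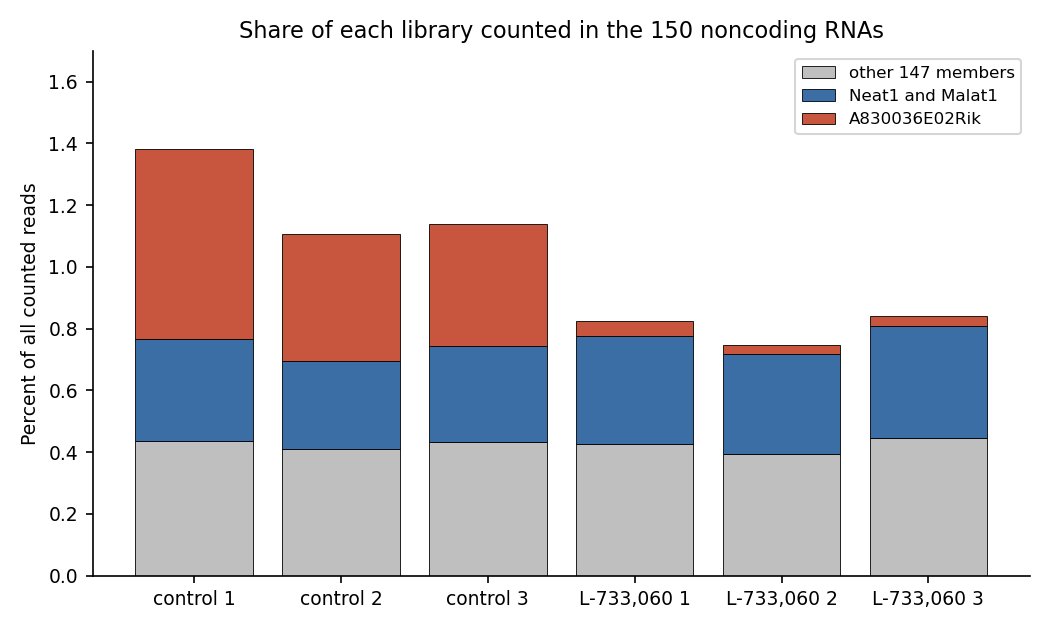
Bars give the percent of all counted reads in each library (y axis, from 0) that fell in the 150 noncoding RNAs, split into A830036E02Rik, Neat1 with Malat1, and the other members. The controls reach 1.11 to 1.38% and the L-733,060 libraries 0.747 to 0.840%, and the red A830036E02Rik segment is shorter in every L-733,060 library.

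Of the 150 members, 66 passed an adjusted p of 0.05 in the quasi-likelihood test of edgeR, adjusted by Benjamini-Hochberg over all 15712 genes tested. That is 44% of the members, against 41.3% of all genes tested. Fewer members than genes in general rose, 26 or 17.3% against 21.4%, and more fell, 40 or 26.7% against 19.9%. The 3 values of each group did not overlap for 82 members, or 54.7%, against 52% of all genes. Of the members, 11 at least doubled (7.33%, against 10.7% of all genes) and 21 at least halved (14%, against 8.31%). The members' median log2 fold change was -0.08, against -0.0016 for all genes tested. The overall share of members called was thus near the background. The other autosomal noncoding genes that were tested, 1320 with lower counts, were called in 26.8% of cases.

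**Figure D2:**
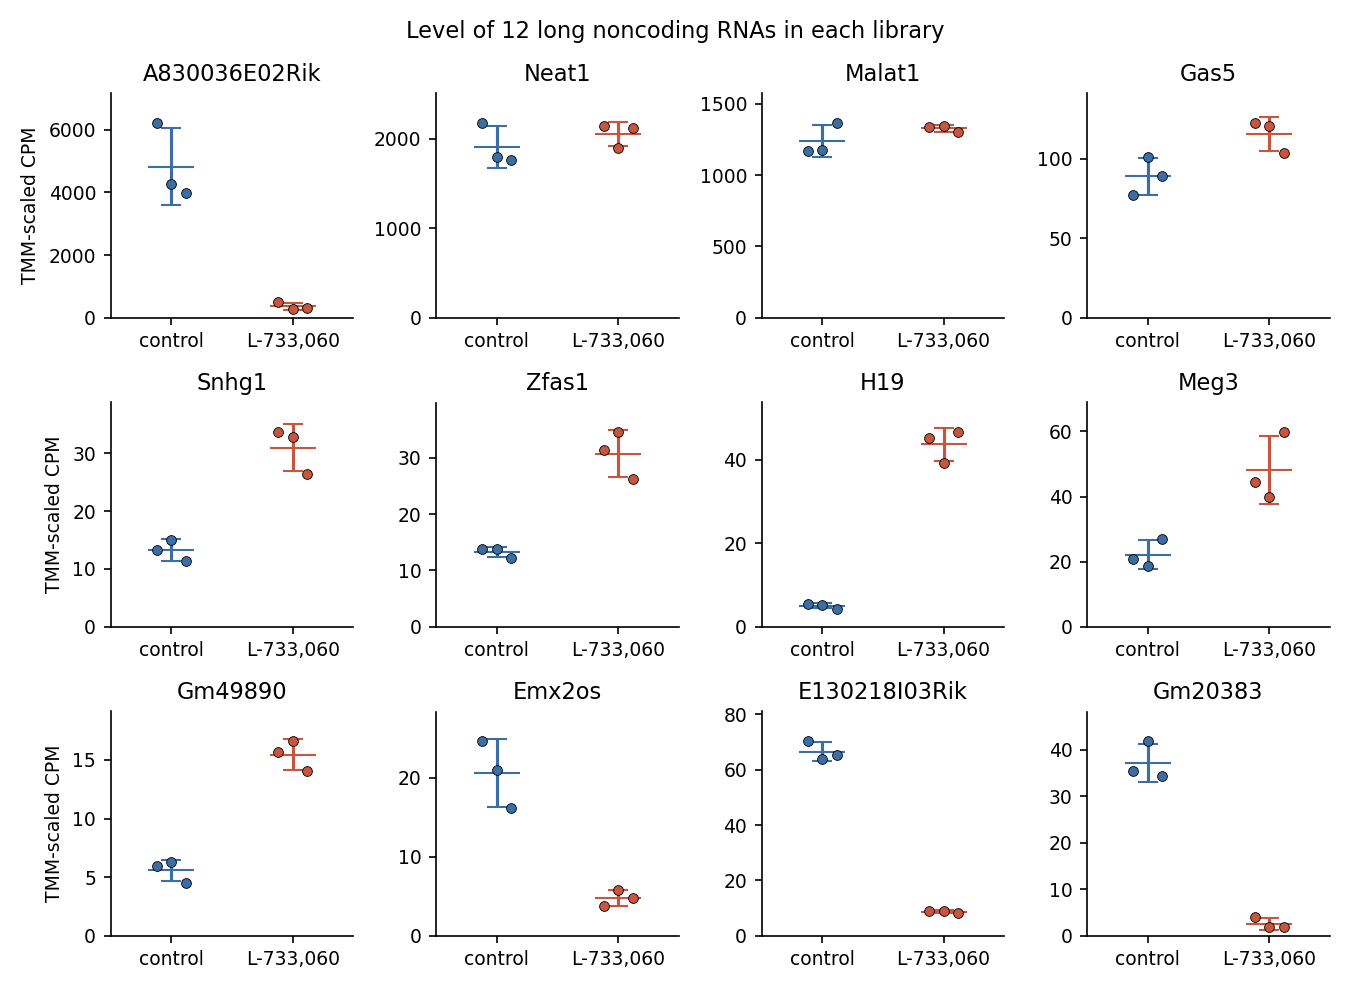
Points are the single libraries and bars the mean and 1 SD of 3 libraries. The y axes give CPM (library-scaled counts, TMM), each from 0, for 12 members in control (blue) and L-733,060 (red) limbus. Of these, E130218I03Rik is typed protein-coding in GENCODE M21. The groups lie apart in every panel except those of Neat1 and Malat1.

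Neat1 and Malat1, the architectural RNA of paraspeckles and a neighbouring RNA that gathers in nuclear speckles, did not pass the test. Their counts are per gene and from poly(A)-selected libraries, so different transcript forms of a gene cannot be told apart. Neat1 (chromosome 19, 5824708 to 5845480, minus strand of mm10) was at 2180, 1795 and 1760 CPM (counts scaled to library size, with TMM factors) in controls and 2146, 1902 and 2121 with L-733,060. Malat1 was at 1166, 1177 and 1367 CPM in controls and 1338, 1347 and 1300.3 with L-733,060. The groups overlapped for both, with log2 fold changes of 0.11 ± 0.13 (SE, adjusted p = 0.561) and 0.10 ± 0.12 (adjusted p = 0.528). Of 17 paraspeckle proteins tested, 6 rose, 1 fell and 10 did not pass, a called share of 41.2% against 41.3% of all genes. Fam98a rose by log2 0.87 ± 0.12 and the RNA-binding protein Tardbp by 0.45 ± 0.13, while the cold-inducible Cirbp fell by 0.73 ± 0.13. The core paraspeckle protein Nono rose by 0.39 ± 0.13, and its partner Sfpq had a log2 fold change of 0.08 ± 0.12 (adjusted p = 0.609). Of 14 nuclear speckle proteins, 3 rose and 1 fell (28.6% called), among them the splicing factors Srsf7 (0.46 ± 0.12), Srsf5 (0.37 ± 0.12) and Srrm1 (-0.52 ± 0.15). These list counts moved with single libraries: with each of the 6 left out in turn, 1 to 6 paraspeckle proteins rose and 1 to 4 fell, and 0 to 6 speckle proteins rose and 0 to 2 fell. Nono lost its call without any single one of controls 1 and 3 and L-733,060 1 and 2. Tardbp, Srsf7 and Srrm1 each lost it without control 1, control 3 or L-733,060 1, and Srsf5 kept it only without L-733,060 3.

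Of the members that carry a snoRNA gene on their own strand, most rose and none fell. These transcripts are spliced so that an intron releases a snoRNA, a guide for chemical modification of ribosomal RNA, while the exons are left without an open reading frame of known use. There were 11 such members, a group formed from gene positions after the values had been seen. By edgeR's adjusted p, 8 rose, none fell and 3 did not pass, with a median log2 fold change of 0.97, beside 21.4% of all genes higher. With each library left out in turn, 6 to 8 rose and none fell. Of the listed snoRNA hosts, chosen by name, 19 were tested, of which 7 rose and none fell. By edgeR's adjusted p, 13 of the 129 members with neither a snoRNA nor a microRNA gene on their strand rose (10.1%) and 40 fell (31.0%). Of all genes tested, 21.4% rose and 19.9% fell. This split, too, was made after the values had been seen.

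Snhg1 was at 13.3, 15.1 and 11.4 CPM in controls and 33.8, 32.9 and 26.4 with L-733,060, every treated library above every control (log2 1.22 ± 0.16, edgeR adjusted p = 7.82e-05). Zfas1 rose from 13.8, 13.8 and 12.3 CPM to 31.3, 34.6 and 26.3 (log2 1.21 ± 0.15, adjusted p = 5.17e-05). Snhg5 rose from 7.17, 9.77 and 8.68 CPM to 22.3, 20.3 and 16.8 (log2 1.21 ± 0.17, adjusted p = 1.98e-04). In these 3 genes the L-733,060 libraries were about 2.3-fold higher, and the third L-733,060 library was the lowest of its group. 1110038B12Rik, whose span holds 2 snoRNA genes, rose from 6.80, 5.64 and 5.47 CPM to 20.9, 20.8 and 15.3 (log2 1.67 ± 0.18, adjusted p = 2.51e-05). 2410006H16Rik, with 3 snoRNA genes, went from 15.5, 17.1 and 13.6 CPM to 32.8, 34.7 and 23.3 (log2 0.97 ± 0.17, adjusted p = 7.35e-04). The third L-733,060 library was again the lowest in both, and above every control.

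Gas5, an abundant host of 8 snoRNAs that accumulates when growth slows, rose less. It was at 77.4, 100.8 and 88.8 CPM in controls and 122.6, 120.6 and 103.3 with L-733,060 (log2 0.38 ± 0.13, edgeR adjusted p = 0.0375), a call that was lost on leaving out any of control 1, control 3, L-733,060 1 and L-733,060 2 singly. Snhg3 rose by log2 0.45 ± 0.16 (adjusted p = 0.0461), and lost its call on leaving out the same libraries as Gas5. Snhg17, Snhg16 and Snhg8 had log2 fold changes of 0.27 ± 0.17, 0.18 ± 0.14 and 0.09 ± 0.15 and did not pass the test. Rian, the remaining snoRNA-bearing member, belongs to an imprinted domain and is described with it. Among 16 proteins that assemble or modify with snoRNAs, 7 rose and none fell (43.8% higher, against 21.4% of all genes). Nop56 and Nop58, core proteins of the box C/D particle, rose by log2 0.87 ± 0.13 and 0.85 ± 0.14, and Dkc1, the pseudouridine synthase of the box H/ACA particle, by 0.80 ± 0.13. Spliced snoRNA hosts are known targets of nonsense-mediated decay. Of 16 factors of that pathway, 1 rose and 5 fell (37.5% called, against 41.3% of all genes), with the decay factor Upf3a at log2 -0.49 ± 0.14, Dhx34 at -0.80 ± 0.23 and the exon junction protein Magoh at 0.48 ± 0.16. With each library left out in turn, 5 to 8 of the snoRNP proteins rose and none fell, while 0 to 2 of the decay factors rose and 0 to 5 fell. Upf3a and Dhx34 lost their call without control 1, and Magoh without any single one of controls 1 and 3 and L-733,060 1 and 2.

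The start sites of the snoRNA hosts are shown because many such hosts, like ribosomal protein genes, are known to begin with a C followed by a run of pyrimidines. Each window runs from 10 bases before to 20 bases from the annotated RefSeq start in GRCm38.p6, 5′ to 3′, and capitals mark a run of at least 5 pyrimidines opening with C that begins within 10 bases on either side of the start. For 1110038B12Rik and Gas5, 1 of 2 annotated starts is shown; the other start of 1110038B12Rik lies beside the same run, and the other start of Gas5, which is the start of its span in the table, has no such run.
Snhg8: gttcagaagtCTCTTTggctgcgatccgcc
1110038B12Rik: gcacacgggtCTCTTTgtgcacccgcccac
Gas5: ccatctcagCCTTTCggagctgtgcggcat
2410006H16Rik: cgccgtCTTTCTCTgcggccatcatgggat
Snhg16: gcgcaagcgcgatctcgtCCTTTCCgaggt
Snhg3: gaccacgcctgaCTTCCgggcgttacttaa
Snhg5: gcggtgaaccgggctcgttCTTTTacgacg
Snhg1: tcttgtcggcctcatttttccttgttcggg
Zfas1: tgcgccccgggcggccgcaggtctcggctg
Such a run lay near a start of 8 of the 11 hosts (72.7%), against 33.3% of 27025 genes with a start sequence and 39 of 106 other members with one (36.8%). These 8 include Rian, whose window is not shown. Snhg17, also not shown, has no such run. Exactly at an annotated start it was found in 3 hosts (27.3%) and in 3.01% of all genes. Of the 3 hosts with the run at a start, 1110038B12Rik and Gas5 rose and Snhg8 did not pass the test. Of the hosts without a run under this definition, Snhg1 and Zfas1 rose and Snhg17 did not pass. The run and the change are given side by side as descriptions.

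Snhg1 shares its upstream region with Slc3a2, the heavy chain of an amino acid transporter, which starts 118 bases away on the other strand and rose by log2 0.45 ± 0.11 (edgeR adjusted p = 0.00601). The 300 bases around the Snhg1 start are shown because they hold both starts (RefSeq, GRCm38.p6, chr19:8723237-8723536, plus strand). Capitals mark the GC box GGGCGG, which begins at base -137 from the start of Snhg1, and TTTATA, the TATA box TATAAA read on the other strand, at base -29.
Snhg1 promoter: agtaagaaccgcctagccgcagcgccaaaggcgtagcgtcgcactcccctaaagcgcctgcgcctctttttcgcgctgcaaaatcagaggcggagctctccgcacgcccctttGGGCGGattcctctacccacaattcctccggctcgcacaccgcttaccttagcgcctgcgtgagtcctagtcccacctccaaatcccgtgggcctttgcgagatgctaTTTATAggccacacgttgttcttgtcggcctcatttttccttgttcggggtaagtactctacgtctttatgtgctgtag
On either strand of the 300-base windows, GGGCGG was present in 8 of 11 snoRNA hosts (72.7%), in 46.2% of the 117 members with a window and in 38.2% of all genes. TATAAA was present in 5 of the 11 hosts (45.5%), 14.5% of members and 15.7% of all genes. Members and all genes had like shares of the AP-1 site TGACTCA (5.98 and 5.95%) and of CCAAT (44.4 and 41.1%). The E-box CACGTG was in 4.27% of members and 8.09% of all genes, and TGATGCAA, a site of ATF4 with C/EBP proteins, in 0.855 and 1.03%. These are matches of letters and do not show binding.

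The members of imprinted domains, which are expressed from the copy of a single parent, were higher with L-733,060 in 3 of 4 cases, beside 21.4% of all genes. H19 (chromosome 7, 142575530 to 142578146, minus strand), a fetal growth-associated RNA, was at 5.37, 5.26 and 4.28 CPM in controls and 45.2, 39.2 and 46.7 with L-733,060. It rose 8.80-fold (log2 3.14 ± 0.15, edgeR adjusted p = 8.15e-08), and of the members it had the largest rise. Igf2, the growth factor gene that shares its enhancers with H19, went the other way, from 10.4 ± 1.60 to 4.51 ± 0.844 CPM (SD, n = 3; log2 -1.20 ± 0.21, edgeR adjusted p = 6.49e-04). Meg3, on chromosome 12, rose from 20.7, 18.7 and 27.0 CPM to 44.4, 39.9 and 59.9 (log2 1.12 ± 0.18, adjusted p = 4.60e-04). Rian, downstream of Meg3 in the same domain, rose from 4.67, 5.12 and 5.73 CPM to 11.3, 12.9 and 15.2 (log2 1.34 ± 0.18, adjusted p = 1.29e-04). In all 3 genes the groups lay apart. Both Meg3 and Rian overlap Rtl1, a paternally expressed coding gene on the other strand at 0.984 ± 0.297 CPM in controls and 2.06 ± 0.540 with L-733,060 (log2 1.07 ± 0.34, edgeR adjusted p = 0.0240, a call lost without control 1, control 3 or L-733,060 1). Kcnq1ot1, the long antisense RNA of the Kcnq1 domain, had groups that overlapped, at 11.7, 9.54 and 18.1 against 18.8, 17.1 and 17.3 CPM (log2 0.43 ± 0.21, adjusted p = 0.123). It passed without control 3, its highest control (log2 0.74, adjusted p = 0.0109). Of 12 listed noncoding RNAs of imprinted domains in the table, 8 were tested, of which 3 rose and 1, Snhg14, fell (log2 -0.98 ± 0.25). Of 19 imprinted coding genes tested, 7 rose (36.8%) and 5 fell (26.3%), and with each library left out in turn 4 to 6 rose and 5 to 6 fell. The growth regulators Plagl1 and Grb10 rose by log2 2.30 ± 0.18 and 1.57 ± 0.16, and Ndn fell by 2.15 ± 0.17.

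Members that hold a microRNA gene on their strand numbered 11, of which 6 rose (54.5%, beside 21.4% of all genes), none fell and 5 did not pass. With each library left out in turn, 5 to 7 rose and 0 to 1 fell. The group was formed after the values had been seen. The 11 members include H19, Meg3 and Rian, and their median log2 fold change was 0.59. The mature sequences of the hosts that rose are shown for the microRNAs named with them below, 5′ to 3′ from RefSeq (GRCm38.p6), with the seed, bases 2 to 8, in capitals. The seed is the stretch that pairs with target messengers.
miR-31-5p, in Gm49890: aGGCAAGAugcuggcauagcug
miR-200a-3p, in Gm13648: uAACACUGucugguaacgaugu
miR-200b-3p, in Gm13648: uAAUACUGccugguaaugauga
miR-429-3p, in Gm13648: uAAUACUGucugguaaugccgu
miR-100-5p, in Mir100hg: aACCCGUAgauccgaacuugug
miR-125b-5p, in Mir100hg: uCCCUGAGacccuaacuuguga
miR-675-5p, in H19: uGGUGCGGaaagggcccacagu
miR-675-3p, in H19: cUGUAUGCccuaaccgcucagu
miR-200b-3p and miR-429-3p share their seed. Among the 3p and 5p forms held by members, the only other shared seed was AUCUUAC of miR-200a-5p and miR-200b-5p. Poly(A)-selected libraries read the host transcript and not the mature microRNA, so no level of a microRNA was measured.

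Gm49890 (chromosome 4, 88909854 to 88942042, minus strand), whose span holds the miR-31 gene, was at 5.92, 6.25 and 4.53 CPM in controls and 15.6, 16.6 and 14.03 with L-733,060 (log2 1.47 ± 0.18, edgeR adjusted p = 5.59e-05). Gm13648, the span of the miR-200a, miR-200b and miR-429 genes known for their part in epithelial identity, rose from 8.65, 9.87 and 7.997 CPM to 13.96, 13.6 and 12.2 (log2 0.59 ± 0.16, adjusted p = 0.0119, a call lost without control 3 or L-733,060 1). Mir100hg, the host of miR-100 and miR-125b-1, rose from 11.1, 13.2 and 15.01 CPM to 44.5, 31.7 and 29.4 (log2 1.42 ± 0.18, adjusted p = 7.80e-05). For all 3, each L-733,060 library was above each control, and the first L-733,060 library was the highest for Mir100hg. Mir22hg, at 16.5, 22.4 and 19.3 CPM in controls and 25.2, 26.5 and 22.6 with L-733,060, had groups that did not overlap but missed the threshold (log2 0.35 ± 0.15, adjusted p = 0.0742), which it passed without L-733,060 3. Mirt1, listed as a microRNA host by name but not among the 11 members with a microRNA gene on their strand, had overlapping groups (log2 0.04 ± 0.18, adjusted p = 0.881). Of 14 proteins that make or load microRNAs, none rose and 4 fell, which is 28.6% called against 41.3% of all genes. Drosha, the nuclease that cuts the primary transcript, fell by log2 0.61 ± 0.13, the uridyltransferase Tut4 by 0.61 ± 0.14 and the Argonaute Ago4 by 0.71 ± 0.19.

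**Figure D3:**
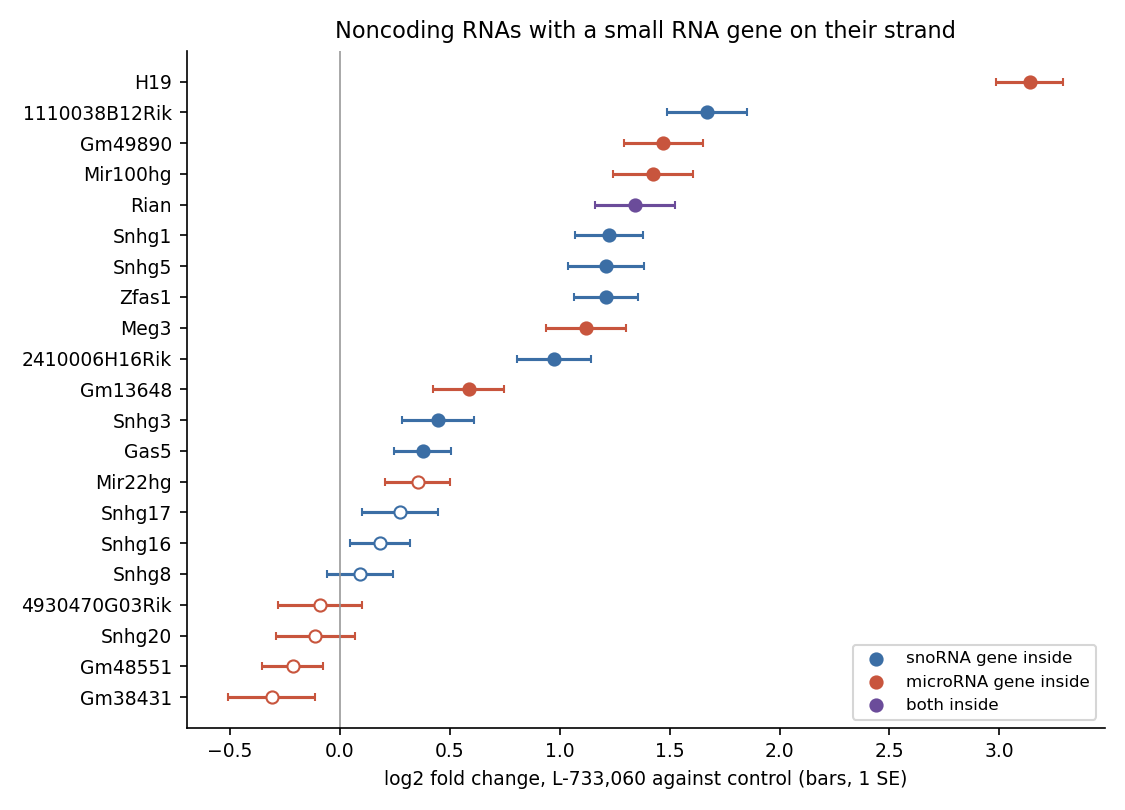
Points give the log2 fold change of L-733,060 against control and bars 1 SE for the 21 members with a snoRNA or microRNA gene on their strand; filled points passed an adjusted p of 0.05 in edgeR's test. All filled points lie to the right of 0, from 0.38 for Gas5 to 3.14 for H19.

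Of 3 further well-studied members with roles in growth and genome stability, 1 passed the test. Tug1, an RNA upstream of the chromatin gene Morc2a, was at 57.5, 56.1 and 54.4 CPM in controls and 77.5, 82.9 and 69.2 with L-733,060 (log2 0.45 ± 0.12, edgeR adjusted p = 0.00871). Morc2a, which lies 375 bases away, had a log2 fold change of 0.71. Norad, a cytoplasmic RNA that binds Pumilio proteins, was at 119.9, 103.8 and 120.0 CPM in controls and 105.0, 105.7 and 110.3 with L-733,060, with overlapping groups (log2 -0.10 ± 0.11, adjusted p = 0.515). Oip5os1 also had overlapping groups (log2 -0.16 ± 0.14, adjusted p = 0.417). AY036118, listed with the ribosomal RNA-derived transcripts, was at 112, 115 and 167 CPM in controls and 70.3, 65.8 and 138 with L-733,060. Its groups overlapped through the third L-733,060 library (log2 -0.53 ± 0.26, adjusted p = 0.121). Without that library it passed, at log2 -0.96, as it did with no filter on low counts.

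Most members sit on a coding gene. A coding gene was overlapped by 97 of the 150, on the opposite strand for 79, on the same strand for 14 and on both for 4, and 53 overlapped none, by the table's gene types and positions. By GENCODE M21, exons of protein-coding genes cover 0.787 to 42.7% of the span of 8 of these 53. The 79 members opposite a coding gene fell more often than they rose, 28 or 35.4% against 11 or 13.9% (median log2 fold change -0.15). Of the 53 without overlap, 14 or 26.4% rose and 9 or 16.98% fell (median 0.09). Over all genes tested, 21.4% rose and 19.9% fell. Across the 97 overlapping pairs, the log2 fold changes of member and coding gene had a Pearson r of 0.752 and a Spearman rho of 0.791. In 35 pairs both genes passed the test, and all 35 moved the same way, 10 higher and 25 lower. Across the 44 pairs that do not overlap and whose coding gene was tested, r was 0.149 and rho 0.126, and 8 of 13 pairs with both genes called moved the same way. These correlations are across genes, which are not independent, and overlapping genes may share reads, so they are given as a description.

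**Figure D4:**
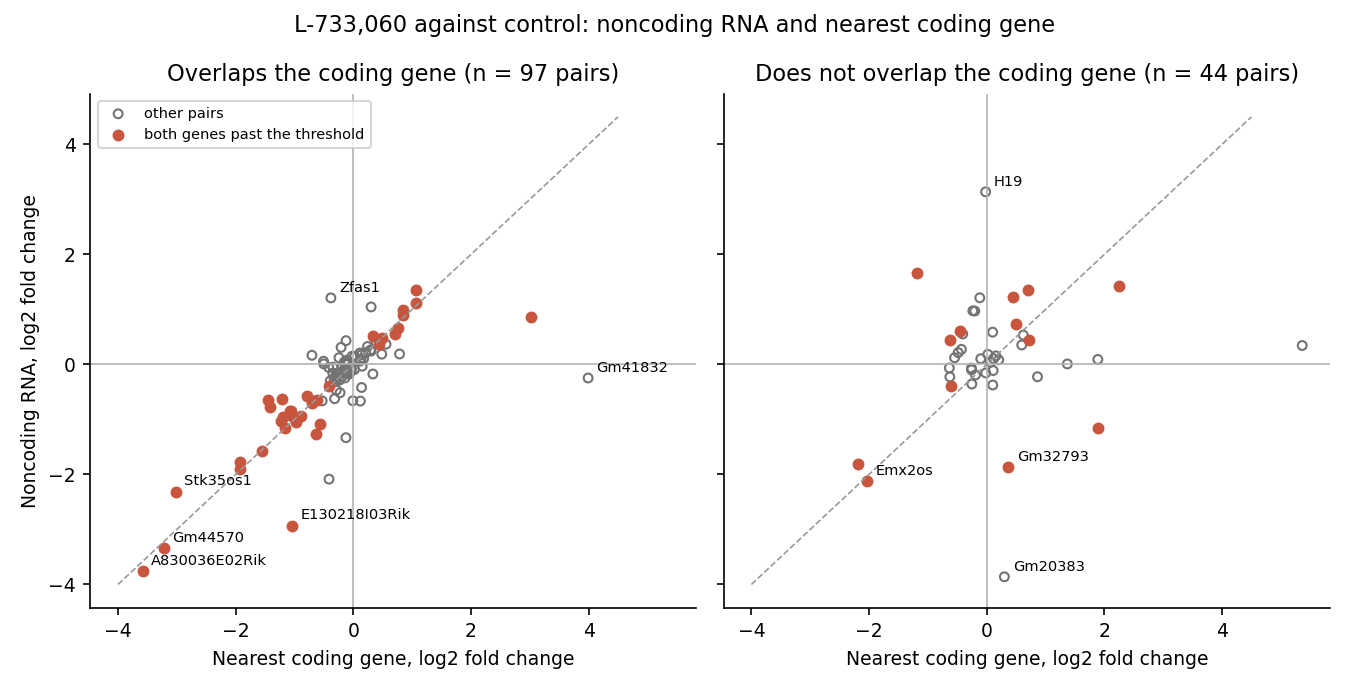
Each point is a noncoding RNA and its nearest protein-coding gene, with their log2 fold changes of L-733,060 against control on the y and x axes, the dashed line marking equality; filled points are pairs in which both genes passed the test. The 97 overlapping pairs (left) lie along the line except for a few such as Gm41832 with Il33, while the 44 pairs that do not overlap (right) are scattered.

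A830036E02Rik, the most abundant member, lies on chromosome 11 from 99417243 to 99423098 on the plus strand, across Krt12, the keratin of the corneal epithelium, on the minus strand. It was at 6227, 4273 and 3970 CPM in controls and 487, 275 and 311 with L-733,060, 13.5-fold lower (log2 -3.75 ± 0.25, edgeR adjusted p = 6.05e-07). Krt12 fell by 3.58 ± 0.20 on the log2 scale. The member's count was 26.8, 22.2 and 23.9% of the Krt12 count in controls and 23.6, 19.3 and 21.5% with L-733,060, so the ratio overlapped between the groups while the member was 13.5-fold and Krt12 11.96-fold lower. Exons of coding genes cover 22.8% of its span.

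Several other opposite-strand members kept a like ratio to the gene they overlap. Gm44570 fell from 19.9, 17.1 and 11.1 CPM to 1.35, 1.45 and 1.92 (log2 -3.34 ± 0.26, edgeR adjusted p = 2.06e-06) with Homer2, a scaffold protein gene, at -3.22. The count ratio to Homer2 was 12.2% in controls and 11.2% with L-733,060. B230206H07Rik fell by log2 1.04 ± 0.13 with Eps8l2 at -0.98, at 16.9 and 16.2% of that gene's count. Gm11532 fell by 1.89 ± 0.21 with Sp6, an epithelial transcription factor gene, at -1.92, at 94.8 and 97.6% of its count. Gm49428 rose from 303, 259 and 254 CPM to 443, 327 and 432 (log2 0.56 ± 0.14, adjusted p = 0.00784) with Krt6a, a keratin of stressed epithelium, at 0.70. In Gm49428, 45.1% of the span is exon of coding genes. Gm52337 fell by 0.40 ± 0.11 with the overlapped Mbp at -0.41, a call that was lost when control 1 (adjusted p = 0.0517) or L-733,060 1 (adjusted p = 0.0804) was left out. Dmrta2os (-1.78) and C130021I20Rik (-0.85) fell with the transcription factor genes Dmrta2 (-1.93) and Lmx1b (-1.07). Gm38733, across Actb and Fbxl18, was at 486, 467 and 528 CPM in controls and 569, 381 and 539 with L-733,060, with no call (log2 0.01 ± 0.15). Over all 97 overlapping pairs, both genes had passed the test in only 35. The count ratio did not overlap between the groups in 28 of the 97. In 81 of the 97 pairs the geometric mean of the count ratio moved by less than 1.5 times.

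In 6 of the 97 pairs that mean ratio moved by 2 times or more. Gm41832, opposite the alarmin gene Il33, was at 19.2, 21.5 and 20.5 CPM in controls and 17.6, 17.9 and 16.04 with L-733,060 (log2 -0.25 ± 0.13, edgeR adjusted p = 0.158). Il33 rose from 11.1 ± 0.860 to 177 ± 42.8 CPM (SD, n = 3; log2 3.99 ± 0.18, edgeR adjusted p = 6.53e-08). The count ratio was 170 to 200% in controls and 7.87 to 11.5% with L-733,060. E130218I03Rik fell from 70.5, 63.7 and 65.5 CPM to 9.05, 8.99 and 8.18 (log2 -2.93 ± 0.13, adjusted p = 4.93e-08), a larger fall than that of Zfp593 on the other strand (-1.04 ± 0.13). GENCODE M21 types E130218I03Rik as protein-coding, and exons of coding genes cover 100% of its span. Zfas1, described above, rose while Znfx1 on the other strand had a log2 fold change of -0.38 ± 0.21 (adjusted p = 0.174). The ratio was 38.5 to 50.9% in controls and 83.5 to 203% with L-733,060. Gm11816 fell by log2 2.09 ± 0.20 (adjusted p = 8.69e-06) against -0.41 for Clvs1, and Gm19605 by 1.33 ± 0.18 against -0.12 for Ppp2r5c. Panct2 rose by 0.86 ± 0.22 against 3.02 for Slco4c1. Outside these 6 pairs, Stk35os1 fell from 23.8, 15.9 and 14.7 CPM to 3.95, 3.26 and 3.71 (log2 -2.31 ± 0.22, adjusted p = 8.30e-06), less than the kinase gene Stk35 (-3.02 ± 0.20). Its ratio to Stk35 was 3.27 to 3.66% in controls and 4.72 to 6.54% with L-733,060, without overlap of the groups.

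Among members that overlap no coding gene, Gm20383 had the largest fall. This RNA (chromosome 6, 81984321 to 81992426, plus strand) was at 35.3, 41.9 and 34.3 CPM in controls and 3.996, 1.82 and 1.83 with L-733,060, 14.5-fold lower (log2 -3.86 ± 0.26, edgeR adjusted p = 7.00e-07). Its nearest coding gene, Mrpl19, lies 18372 bases away and had a log2 fold change of 0.30. Emx2os starts 55 bases from Emx2, a homeobox gene, on the other strand. It fell from 24.7, 21.05 and 16.1 CPM to 3.76, 5.78 and 4.74 (log2 -2.12 ± 0.21, adjusted p = 1.41e-05), and Emx2 fell by 2.03 ± 0.16. Emx2os was at 54.9% of the Emx2 count in controls and 52.4% with L-733,060. Gm32793 fell from 72.1, 77.4 and 94.1 CPM to 28.3, 20.6 and 17.6 (log2 -1.87 ± 0.18, adjusted p = 9.13e-06), while Epha4, an ephrin receptor gene 7083 bases away, rose by 0.37 ± 0.13, a call lost without any 1 control or without L-733,060 2. Gm46220 fell by log2 2.20 ± 0.25 and Gm2694, 220 bases from Cbln1, by 1.81, with Cbln1 at -2.18. Gm20559 rose from 26.0, 27.0 and 24.7 CPM to 54.7, 85.4 and 58.8 (log2 1.36 ± 0.17, adjusted p = 6.05e-05), with Samd9l, 26116 bases away, at 0.71. Tincr, an RNA known in human skin for its part in epidermal differentiation, has 42.7% of its span under GENCODE exons of coding genes and fell by 0.39 ± 0.14 (adjusted p = 0.0404), a call kept only without L-733,060 3 among the fits that left out 1 library. Gm35946, 48414 bases from the eye field gene Pax6, rose by 0.60 ± 0.20 while Pax6 was at -0.45, and lost its call without control 1, control 3 or L-733,060 2.

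The remaining members among the 12 most abundant did not pass: Gm20716, on the strand of Adnp, had a log2 fold change of -0.08 ± 0.11 and Gm16136, opposite Grhl2, one of -0.25 ± 0.14. At the rank limit, D830050J10Rik fell by 0.66 ± 0.22 (edgeR adjusted p = 0.0312, lost in 4 of the 6 fits without 1 library) and Gm45928 had a log2 fold change of 0.21 ± 0.17 (adjusted p = 0.347).

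The libraries held between 18708288 and 23541791 counts. The first principal component held 79.6% of the variance and separated the groups. Corneal and conjunctival markers were detected in every library. Summed corneal, conjunctival, leukocyte, lacrimal gland, muscle and nerve markers lay apart between the groups. The sums overlapped for stromal, endothelial, melanocyte and sex-linked markers. Stromal markers, for example, summed to 2340 to 3388 CPM in controls and 2058 to 2920 with L-733,060. Single markers within these lists still changed. Of the 9 stromal markers, 4 rose, 3 fell and 2 did not pass, with log2 fold changes from -2.78 to 2.95. Of the 6 endothelial markers, 3 rose and none fell. Among 3 melanocyte markers tested 2 fell, and among 4 sex-linked markers tested 2 rose. The 8 corneal epithelial markers, which include Krt12, summed to 44328 to 58496 CPM in controls and 14447 to 18211 with L-733,060. Of these, 6 fell, 1 rose and 1 did not pass, and the highest log2 fold change among the 8 was 2.18. The 9 conjunctival and goblet cell markers summed to 9829 to 11300 and 24251 to 28345 CPM, and all 9 rose. The 12 leukocyte markers summed to 559 to 655 and 836 to 1088 CPM. Of the 9 lacrimal gland markers, summed at 40.1 to 50.8 and 3561 to 5750 CPM, 4 were tested and the defining genes Lcn11, Prol1, Scgb2b24 and Scgb1b24 were at 0 in all libraries. Of these 4, Ltf and Esp6 rose (log2 6.85 and 8.74), Amy1 fell (-1.37) and Dnase1 did not pass. The 6 muscle markers summed to 12.7 to 16.6 and 113 to 174 CPM, of which 3 were tested: Acta2 rose (log2 3.56), Myh11 fell (-0.96) and Des did not pass. The 7 nerve and Schwann cell markers summed to 223 to 251 and 163 to 201 CPM. Of these, 4 were tested: 1 rose (log2 1.14), 2 fell and 1 did not pass. Mbp, which the member Gm52337 overlaps, fell by 0.41 and made up most of this sum in every library. The part of these differences in the changes of the noncoding RNAs was not tested.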

How the data were processed

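Limbal RNA from 6 samples was selected for poly(A), made into libraries and sequenced, per the labels' protocols. Per the submitters' processing notes, bcl2fastq, HISAT2 2.1.0, HTSeq 0.11.2 and the genome build mm10 were used; neither strand mode nor annotation release is stated there. The authors deposited a read count per gene and sample, and TPM, which equal counts divided by the deposited gene length (other) and rescaled.

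Members and gene lists were chosen with earlier results of these data known. Counts were tested in R 4.3.3 with edgeR 4.0.16: filterByExpr (minimum count 10, total 15), TMM, quasi-likelihood F test, two-sided, Benjamini-Hochberg over 15712 genes, threshold 0.05. The SE is the absolute log2 fold change over the square root of F. The procedure was tested on simulated data. Alternatives used DESeq2 1.42.0 and limma 3.58.1. The total counts were 20780561, 18708288 and 21230942 with L-733,060 and 21870713, 22142129 and 23541791 in controls; 3 counts are 0.127 to 0.160 CPM. Named members are the 12 most abundant, the 10 largest rises and 10 largest falls called without overlap of the groups, up to 4 per class, those at the rank limit, and, chosen after seeing values, others in pairs or holding small RNA genes. Sequences are from RefSeq; 117 members had a start sequence. Rows typed ncRNA, 1229 and nearly all microRNA genes, were left out.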

Additional observations from a re-analysis of the deposited data

How the results depend on the processing

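The counts of members called higher and lower stayed within 1.5 times of 26 and 40 under DESeq2 size factors, no filter, DESeq2's Wald test, limma voom, the replicate block and leaving out each library; 51 of the 66 called members were called under all 11 settings, and no called member changed sign. With the replicate block, 32 members were higher and 43 lower. AY036118, Mir22hg and Kcnq1ot1 passed with it (adjusted p = 0.00259, 0.0489 and 0.0457). Whether the numbers pair the samples was not settled. Samples of the same number had correlations of -0.0224, 0.273 and 0.133, and those of unlike numbers had -0.296 to 0.163. Leaving out 1 library gave 21 to 32 higher and 31 to 45 lower, a members' median of -0.118 to -0.0406, and 2677 to 3722 higher and 2354 to 3788 lower of all genes. Over the 141 pairs with a tested neighbouring gene, overlapping or not, the correlation was 0.526 in the main fit. It was 0.483 to 0.550 with 1 library left out. Without control 1, control 3 or L-733,060 1, 13 members lost their call. Restricted to the 41 members that overlap no other gene, 11 were higher and 7 lower and the median turned to 0.0907; the 75 most abundant gave 14 and 17, and the 300 most abundant 51 and 67. That correlation of 0.526 with the neighbouring gene fell to 0.149 for the 44 pairs that do not overlap. The share difference of -0.406 percentage points became 0.0316 without A830036E02Rik.

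Small values without a call turned sign. Gm38733 was at -0.0068 without the filter, -0.0111 with limma voom, -0.0104 with the replicate block, and from -0.0992 to 0.169 when leaving out a library. Leaving out a library gave -0.0534 to 0.162 for Snhg8 and -0.119 to 0.195 for Mirt1. The causes were not tested. Every member has at least 1103 counts in all, and with 3 libraries a group the precision is that of the printed SEs.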
